A study of Mus musculus with 34 samples.

Results

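The blood stem and progenitor genes described here were Kit, Cd34, Flt3, Meis1, Hoxa9, Mecom, Runx1, Lyl1, Erg and Spi1. They were chosen by name, as genes that mark or specify blood stem and progenitor cells, and were read from every probe set that carries 1 of these symbols. The choice was made with earlier results of these data known. They made up 10 of the 18032 genes named on the array, with 22 of 34741 probe sets, and all 10 were among the 12672 genes bright enough to be tested. Total RNA from freshly isolated, unsorted mouse fetal liver, labelled embryonic day 14.5 (13.5 to 14.5 in the series' design text), was hybridised to 34 Affymetrix arrays of 8 genotypes. The retinoblastoma family genes Rb1, Rbl1 (protein p107) and Rbl2 (protein p130) were intact on 2 wild type arrays. A single gene was absent on 1 p107 KO, 3 p130 KO and 2 Rb1 KO arrays. A pair was absent on 6 p107;p130 DKO, 5 Rb1;p107 DKO and 9 Rb1;p130 DKO arrays, and all 3 genes were absent on 6 Rb1;p107;p130 TKO arrays. No group was treated. How the alleles were made, and whether each array holds 1 animal, is not given in the sources used here, so p-values measure the spread between these samples, which may be technical.

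At this stage the fetal liver is the main blood-forming organ, where stem and progenitor cells expand among far more numerous maturing red cells and hepatocytes. Receptors such as KIT and FLT3 pass growth factor signals to these cells, and a network of transcription factors holds their identity. Several of those factors serve other cells too: LYL1 and ERG work in red cell precursors and endothelium respectively, and PU.1 (gene Spi1) drives myeloid fate. Pocket proteins restrain E2F factors and so the entry of cells into division.

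Of the 10 genes, Lyl1 alone was called when the effect of losing Rb1 was read over all backgrounds. Lyl1 encodes a basic helix-loop-helix factor related to TAL1, and its signal was 1.2-fold higher without Rb1. No member was called for loss of p107 or of p130, nor in any of 11 pairs of genotypes, where 0 to 0.379% of all genes were called, or in 1 interaction. Of these shares, that of the comparison of the double knockouts of Rb1 with p107 and of Rb1 with p130 (34 genes, 0.268%) varied with the processing, from 4 genes with array group as a block to 2118 with array weights. That made 1 call in 150 tests over 15 comparisons, while 13 of the 150 (8.67%) had an unadjusted p under 0.05, against 7.41% of the 190080 tests of all genes in the same comparisons. A call means a Benjamini-Hochberg adjusted p under 0.05 over all genes tested in that comparison, by limma on log2(signal + 32). Changes are on that scale, which understates the change of dim genes.

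The start of Lyl1 is shown because it is the member that was called. The window is chr8:84701207-84701456 on the plus strand of GRCm38.p6, the 250 bases before the annotated start, from RefSeq. Capitals mark GGAA and its reverse complement TTCC, the core of sites bound by ETS factors, a family that includes ERG and PU.1.

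Lyl1: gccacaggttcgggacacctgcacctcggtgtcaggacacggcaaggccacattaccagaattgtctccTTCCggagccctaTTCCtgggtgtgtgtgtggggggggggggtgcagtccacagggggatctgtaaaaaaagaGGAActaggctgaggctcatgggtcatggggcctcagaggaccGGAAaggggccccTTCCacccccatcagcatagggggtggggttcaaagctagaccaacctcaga

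The window held 5 of these cores, which did not overlap one another, and 18.0% of all 32851 promoter windows of that length held 5 or more. A core was present in 13 of the 14 member windows, against 93.4% of all windows. GATA, searched on both strands, was in 7 of 14 member windows against 53.6% of all, and was not in the Lyl1 window. TTTNGCGC, one form of the E2F site, was in 0 of 14 member windows and in 1.1% of all. TGTGGT, a RUNX core, was in 1 of 14, at Meis1, against 14.0% of all. The windows covered 9 of the 10 members, and none was used for Spi1.

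The targeted genes followed the labels. Rb1 signal was 5208 to 9085 on the arrays that carry it and 756.0 to 1746 on those that lack it. Rbl1 signal was 1185 to 2713 with p107 and 43.9 to 139.4 without. Rbl2 signal overlapped, at 246.2 to 481.3 with p130 and 105.5 to 265.4 without. Erythroid markers (11 genes, summed signal 155008 to 255359) and hepatocyte markers (10 genes, 138334 to 220673) were high on each array, as the tissue label says. Arrays also fell into 3 array groups of 15, 10 and 9, inferred from how probe sets of the same gene compare and not a recorded batch. Genotypes were spread unevenly over them, with 4 of the 5 Rb1;p107 DKO arrays in the second and 0 of 9 Rb1;p130 DKO arrays there. Array 9 of the latter had the lowest median correlation with the other arrays, 0.951.

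Probe sets differ in brightness for the same amount of RNA, so levels are compared within a gene only. On the Lyl1 probe set, 1419120_at, the wild type arrays read 4380 and 4138 and the p107 KO array 4502. The p130 KO arrays read 3736, 3650 and 4017, and the double knockout of p107 and p130 ran from 3520 through a median of 3902 to 4076. These 12 arrays with Rb1 lay close together. Without Rb1, the single knockout read 5239 and 3859, and the double knockout with p107 read 4881, 5514, 4929, 4571 and 5545. The double knockout with p130 ran from 3682 through 4496 to 6224, and the triple knockout from 3983 through 4852 to 5404. The arrays without Rb1 were higher and more spread, and 14 of 22 lay above the highest array that carries Rb1.

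The mean was 4795 ± 657 (SD, n = 22) without Rb1 and 3966 ± 283 (n = 12) with it, and 20 of 22 arrays lay above the latter mean. The 2 that did not were array 2 of the Rb1 KO and array 7 of the double knockout of Rb1 and p130. The additive Rb1 term was 0.26 ± 0.06 (SE, log2; 95% interval 0.13 to 0.39), with limma adjusted p = 0.0154. In this comparison 2.26% of all genes were called, 1.75% as higher, so 1 of 10 members is to be read against that share. The term was 0.26 again with array group as a block (limma adjusted p = 0.00841, with 4.4% of all genes called). It was 0.22, 0.33 and 0.24 within the 3 array groups taken alone, which hold 6, 4 and 2 arrays with Rb1.

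**Figure D1:**
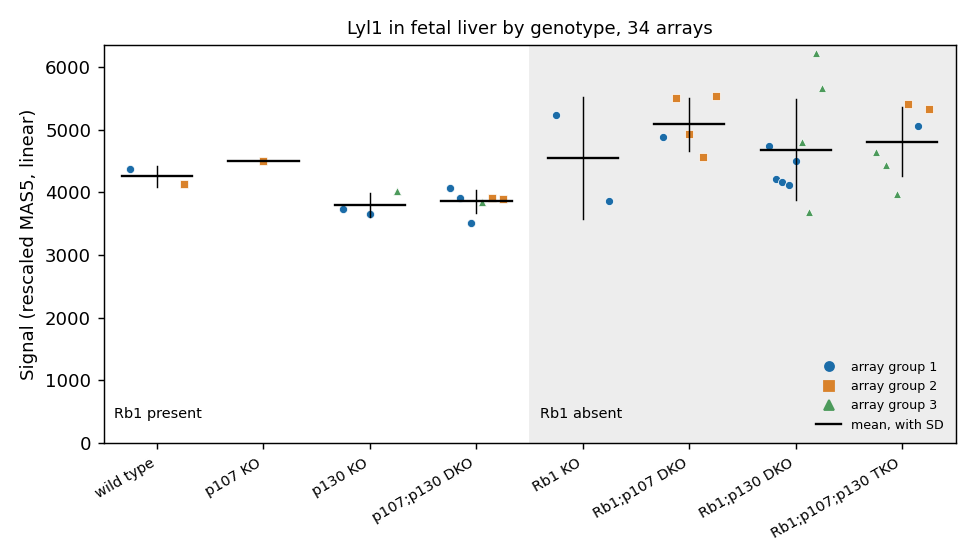
Lyl1 signal (linear scale, vertical axis from 0) on each of 34 arrays by genotype, with bars for the mean and SD and the symbol giving the array group. The 12 arrays with Rb1 lie between 3520 and 4502, and 14 of the 22 arrays without Rb1 lie above that range.

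The pairs of genotypes showed where the difference was measured. The triple knockout was above the double knockout of p107 and p130 by 0.31 ± 0.11 (SE; 4810 ± 552 against 3862 ± 184, n = 6 and 6), with all 6 arrays above the other group's mean. Its unadjusted limma p was 0.00645 and its adjusted p 0.387, in a comparison where 0.379% of genes were called. With p130 absent, Rb1 loss gave 0.28 ± 0.12 (4678 ± 806, n = 9, against 3801 ± 192, n = 3), with 8 of 9 arrays above that mean and limma adjusted p = 0.891, where 0.118% of genes were called. Against wild type, loss of Rb1 alone gave 0.08 (95% interval -0.29 to 0.45, limma adjusted p = 1.0, n = 2 and 2), where 0.00789% of genes were called. The estimates of the 3 pairs were above 0, but none passed on its own. For Rb1 loss alone the interval spans 0, and 1 of 2 arrays lay above the wild type mean, so that pair gives no direction. The triple knockout against wild type gave 0.17 (95% interval -0.14 to 0.47, n = 6 and 2) and was not called, where 0.0789% of genes were called. With p130 absent, the Rb1 effect differed by 0.03 between arrays without and with p107 (interaction, 95% interval -0.30 to 0.36). The p107 term for Lyl1 was 0.05 (-0.07 to 0.17) and the p130 term -0.09 (-0.23 to 0.04).

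Because these are bulk samples, fewer cells of a type and less RNA per cell cannot be told apart. The summed signal of the 11 erythroid markers had a median of 205397 (162118 to 255359) without Rb1 and 195721 (155008 to 241789) with it. None of the 11 was below a signal of 100 on every array. Their part in the Lyl1 result was not tested. In the fit, 8 of the 11 were above 0, with a median of 0.08 against -0.016 over all genes. Of the 11, 1 was called, where 2.26% of all genes were. That one was Epor, the erythropoietin receptor, which was lower (-0.83, limma adjusted p = 1.55e-07), while Hemgn (0.22, adjusted p = 0.197) and Rhd (0.18, adjusted p = 0.316) were not called.

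**Figure D2:**
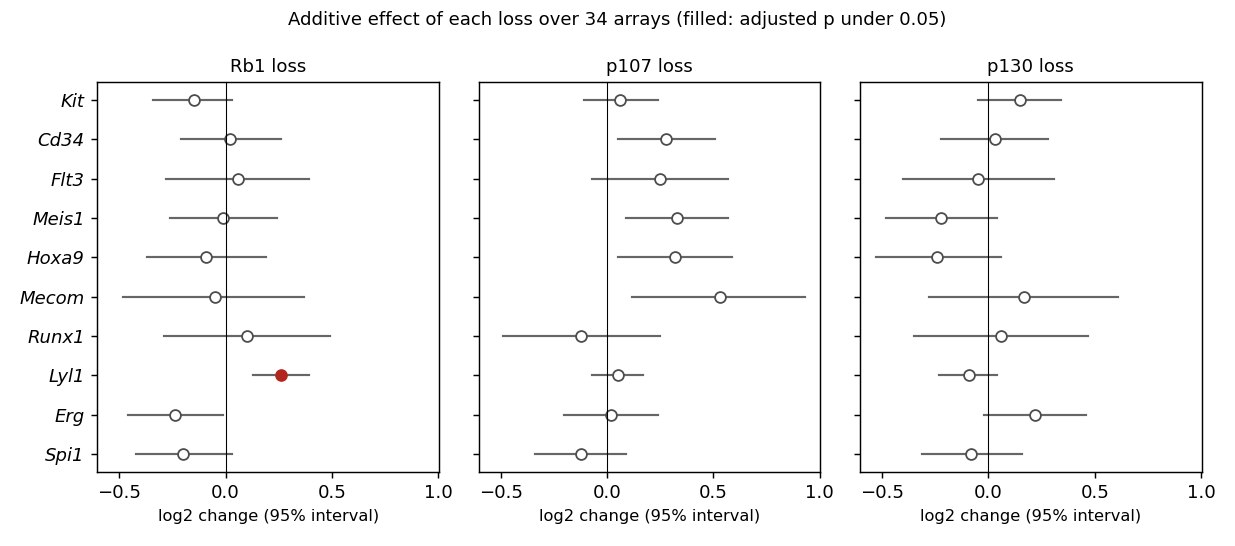
Log2 change (horizontal axis, with 95% intervals) of the 10 genes for loss of Rb1, p107 and p130 over all backgrounds, from 34 arrays, with calls filled. Lyl1 under Rb1 loss (0.26) is the filled point, and under p107 loss 8 of 10 points lie above 0.

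Of the receptors, KIT is the receptor for stem cell factor. Kit was bright, at 577.1 to 1345 over all arrays on probe set 1452514_a_at. Its mean was 942.6 ± 184 (SD, n = 22) without Rb1 and 1054 ± 159 (n = 12) with it, and the ranges overlapped. Its highest array was array 4 of the double knockout of p107 and p130, and its lowest was array 9 of the double knockout of Rb1 and p130. The Rb1 term was -0.15 (95% interval -0.34 to 0.03, limma adjusted p = 0.6). The second Kit probe set, 1415900_a_at, gave 0.01 for the same term, and the 2 probe sets correlated at r = 0.31 over the 34 arrays. KIT also marks mast cells, whose 9 markers summed to a median of 785 (496 to 1007) without Rb1 and 921 (547 to 1345) with it. These sums are low: of the 9 markers only 6 passed the filter, and Fcer1a was under 100 on every array. The part of mast cells in the Kit values was not tested.

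FLT3, the receptor of early lymphoid and myeloid progenitors, was near the lower limit. Its probe set 1419538_at reached 100 on 23 of 34 arrays and ran from 34.3 to 256.6, with both extremes in the double knockout of Rb1 and p130. Its 3 additive terms were 0.06, 0.25 and -0.05 for Rb1, p107 and p130, with intervals as wide as -0.40 to 0.31 for the last. A change of 1.2-fold such as that of Lyl1 would lie inside each of them.

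Cd34 encodes a sialomucin on progenitors and also on endothelium. On probe set 1416072_at, wild type read 468.4 and 725.5, the p107 KO array 818.8, p130 KO 614.1, 693.3 and 363.2, and Rb1 KO 466.4 and 559.5. Arrays without Rb1 and p107 read 468.5, 875.8, 879.0, 817.9 and 686.8. In larger groups, the double knockout of p107 and p130 ran from 554.9 through 729.2 to 971.2, that of Rb1 and p130 from 430.4 through 609.6 to 1025, and the triple knockout from 557.6 through 672.5 to 870.6. Arrays that lack p107 were on the whole higher, but the range was shared. The mean was 736.4 ± 146 (SD, n = 18) without p107 and 611.2 ± 175 (n = 16) with it, and 13 of 18 arrays lay above the latter.

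The p107 term for Cd34 was 0.28 ± 0.11 (limma unadjusted p = 0.0165, adjusted p = 0.196). With array group as a block it was 0.05 (95% interval -0.16 to 0.25, limma adjusted p = 0.898). Within the 3 array groups it was -0.01, 0.21 and 0.06, the second of which rests on 1 array that carries p107. Array groups held 45.9% of the variance of Cd34, against 22.0% between genotypes, with means of 564.1, 841.5 and 684.2. Rb1 loss left Cd34 at 0.02 (-0.21 to 0.26).

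Across the 10 genes, the p107 term had a median of 0.16, against -0.003 over all genes tested, and 8 of 10 were above 0. With array group as a block the median was 0.07, against 0.018 over all genes. None was called in the first of these fits, where 1.14% of all genes were. An unadjusted limma p under 0.05 was found for 4 of the 10, Meis1, Mecom, Cd34 and Hoxa9, and for 2162 of the 12672 genes. With the block it was found for Meis1, Mecom and Hoxa9 and not for Cd34. No member was called there, where 84 of all genes were. The count of all genes at that unadjusted p was not taken with the block. For p130 loss the median was -0.01 and 0 of 10 had an unadjusted p under 0.05, against 1282 of all genes. The p130 terms ran from -0.24 for Hoxa9 (95% interval -0.53 to 0.06) to 0.22 for Erg.

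Meis1 encodes a TALE homeodomain partner of HOX proteins that stem cells need. On probe set 1443260_at the p107 KO array stood out at 589.6, against 229.8 and 231.7 in wild type. The p130 KO arrays read 141.8, 237.6 and 122.3, the Rb1 KO arrays 204.3 and 269.0, and the double knockout of Rb1 and p107 read 246.4, 342.2, 284.2, 225.8 and 259.0. In larger groups, the double knockout of p107 and p130 ran from 152.5 through 257.2 to 353.3, that of Rb1 and p130 from 139.5 through 208.7 to 310.5, and the triple knockout from 226.4 through 265.3 to 273.1. In all, 17 of 18 arrays without p107 lay above the mean of those with it, while only 4 lay above their highest.

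The p107 term for Meis1 was 0.33 ± 0.12 (limma unadjusted p = 0.00827, adjusted p = 0.151). It was 0.29 with array group as a block (limma adjusted p = 0.341), and 0.29, 0.88 and 0.31 within the array groups. The second of these rests on 1 array that carries p107, in the group that also holds the p107 KO array. The second probe set, 1450992_a_at, gave 0.35 ± 0.13, and a dim one, 1459423_at, gave 0.00 ± 0.15. The first and second correlated at r = 0.23 over the arrays. With Rb1 present and p130 absent, p107 loss gave 0.59 ± 0.22 (267.3 ± 73.2, n = 6, against 167.2 ± 61.7, n = 3; limma adjusted p = 0.999), where 0.0237% of genes were called.

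Hoxa9, the HOX partner of MEIS1, was dim: probe set 1455626_at reached 100 on 27 of 34 arrays. Wild type read 137.2 and 147.7, the p107 KO array 205.7, p130 KO 80.2, 159.9 and 25, and Rb1 KO 110.8 and 108.4. Arrays without Rb1 and p107 read 100, 186.8, 138.9, 167.1 and 176.6. Values without p107 and p130 ran from 112.4 through 150.2 to 214.7, that of Rb1 and p130 from 58.7 through 112.9 to 137.7, and the triple knockout from 72.1 through 117.7 to 172.5. Arrays without p107 were higher on average, with 14 of 18 above the mean of the others and 7 above their highest. The p107 term was 0.32 ± 0.13 (limma adjusted p = 0.21), and 0.29 with the array group block.

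The other Hoxa9 probe set, 1421579_at, gave -0.22 ± 0.20 for p107 loss, and the 2 correlated at r = -0.31. Array groups held 39.8% and 44.1% of the variance of the brighter and the dimmer one. The largest pair was the double knockout of p107 and p130 against p130 KO, 0.78 ± 0.27 on the brighter probe set (155.9 ± 40.8, n = 6, against 88.4 ± 67.8, n = 3; limma adjusted p = 0.999), with all 6 arrays above the other mean. Array 3 of the p130 KO, at 25, lay below the 32 added to each signal, so the size of that difference is set in part by this number.

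**Figure D3:**
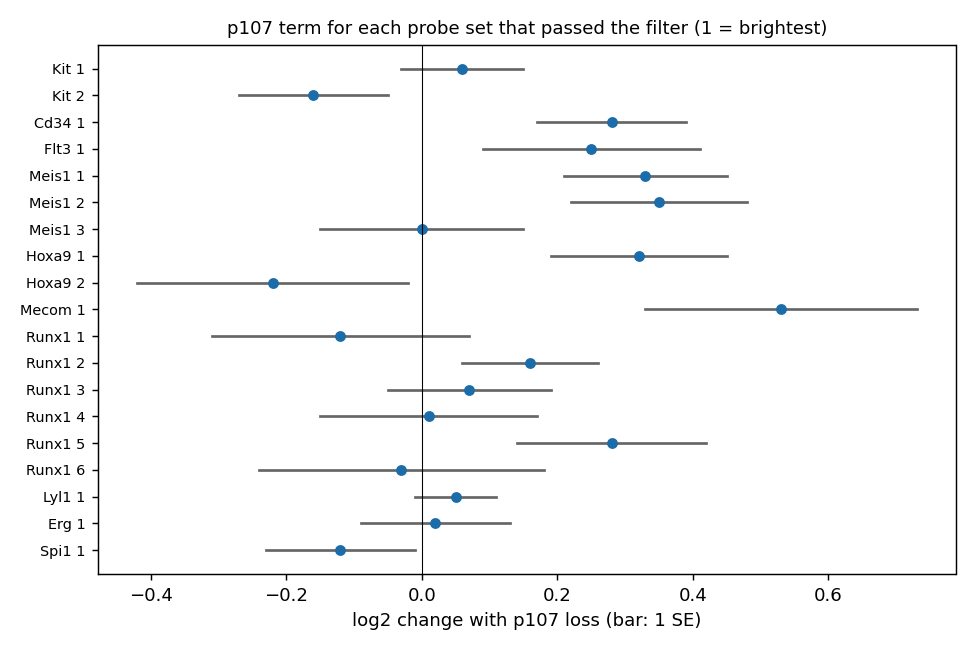
Log2 change with p107 loss (horizontal axis, bars of 1 SE) for each of the 19 probe sets that passed the filter, numbered by brightness within a gene. The first and second Meis1 probe sets lie at 0.33 and 0.35, while those of Hoxa9 lie on opposite sides of 0, at 0.32 and -0.22.

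Mecom encodes EVI1, a zinc-finger regulator of stem cell self-renewal. Probe set 1438325_at reached 100 on 9 of 34 arrays, so most of its values are near background. Wild type read 84.3 and 50.4, the p107 KO array 196.5, p130 KO 63.3, 45.5 and 89.2, and Rb1 KO 26.4 and 8.16. Arrays without Rb1 and p107 read 103.4, 117.9, 65.1, 96.6 and 75.5. Values without p107 and p130 ran from 66.2 through 87.9 to 101.0, and the triple knockout from 49.1 through 112.1 to 168.9. The double knockout of Rb1 and p130 spanned 19.2 through 48.4 to 347.9, the top value being array 9. Arrays that lack p107 were mostly in the upper part, 14 of 18 above the mean of the others.

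The p107 term for Mecom was 0.53 ± 0.20 (limma adjusted p = 0.176). Whether Mecom was called depended on the setting. It was called without array 9 of the double knockout of Rb1 and p130 (0.65, limma adjusted p = 0.0263), and with all arrays under array weights (0.56, adjusted p = 0.0446) or a replicate block (0.72, adjusted p = 0.0195). In these settings, in that order, 335, 652 and 310 of all genes were called, against 145 in the main fit. It was not called with array group as a block (0.52, adjusted p = 0.307) or as the mean of its probe sets (0.11, adjusted p = 0.556). Over the alternatives other than leaving out single arrays the term ran from 0.11 to 0.88. The 2 other Mecom probe sets did not reach 100 on any array. Both Rb1 KO arrays read below the 32 added to each signal, so no fold or rank is given against them. The Rb1 term was -0.05 (95% interval -0.48 to 0.37).

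Of 12 mesenchymal markers, 9 were above 0 for loss of p107, 4 had an unadjusted p under 0.05 and 1 was called, Pdgfrb (0.67 ± 0.11, limma adjusted p = 0.000868), a receptor of stellate cells and pericytes. Over all genes, 1.14% were called for this loss, and 2162 of 12672 had an unadjusted limma p under 0.05. The list's median was 0.26. On single backgrounds it was 0.53 with p130 absent and Rb1 present (12 of 12 above 0) and 0.33 with Rb1 and p130 absent (9 of 12). With Rb1 absent and p130 present it was -0.32 (3 of 12). Their summed signal had a median of 15475 (8723 to 29686) without p107 and 12316 (6661 to 30252) with it, and none of the 12 was below 100 on every array. Their part in the values of Meis1, Hoxa9, Mecom and Cd34 was not tested. The 14 endothelial markers had a median of 0.01 and 0 calls by limma, with 0 at an unadjusted p under 0.05. Mesenchymal markers were not the only ones to shift. Of 11 megakaryocyte markers, 9 were above 0 (median 0.18), and of 12 granulocyte markers 1 was (median -0.21). Both lists had 0 calls by limma, with 2 and 1 at an unadjusted p under 0.05. Their part was not tested either.

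RUNX1 is the factor that starts definitive blood formation. Its 6 probe sets all passed the filter and did not move together: the 15 pairs correlated between r = -0.46 and r = 0.37. The brightest, 1452530_a_at, ran from 62.8 to 455.2, with both extremes in the triple knockout. Its mean was 295.2 in the first array group, 183.2 in the second and 165.6 in the third, and array groups held 39.0% of its variance against 6.4% between genotypes. The Rb1 and p107 terms of the 6 lay between -0.17 and 0.10 and between -0.12 and 0.28. None was called in a fit of 28005 probe sets, where 1.73% were called for Rb1 loss, 0.568% for p107 loss and 0.0143% for p130 loss.

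Erg encodes an ETS factor of stem cells and endothelium. On probe set 1440244_at, wild type read 176.7 and 155.7, the p107 KO array 151.4, p130 KO 181.6, 214.2 and 189.8, and Rb1 KO 156.2 and 176.9. Arrays without Rb1 and p107 read 91.6, 165.9, 125.7, 147.7 and 81.7. The double knockout of p107 and p130 ran from 129.9 through 184.3 to 255.6, that of Rb1 and p130 from 68.6 through 157.9 to 206.4, and the triple knockout from 160.5 through 179.0 to 198.8. The arrays under 100 were in the double knockouts that lack Rb1, while the triple knockout was narrow and near the wild type. The Rb1 term was -0.24 ± 0.11 (limma unadjusted p = 0.0442, adjusted p = 0.422), with 154.1 ± 38.8 (n = 22) against 187.1 ± 38.3 (n = 12). The triple knockout was above the double knockout of Rb1 and p107 by 0.47 ± 0.19 (178.4 ± 14.6, n = 6, against 122.5 ± 35.9, n = 5; limma adjusted p = 0.66), where 0.00789% of genes were called. The p130 term was 0.22 (95% interval -0.02 to 0.46), where 0.0158% of genes were called.

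Spi1 ran from 212.3 to 558.3 on probe set 1418747_at. Array groups held 53.5% of its variance, the highest share of the brightest probe sets of the 10 genes, with means of 441.7, 331.7 and 297.4, against 15.8% between genotypes. Loss of Rb1 gave -0.20 ± 0.11 (353.6 ± 84.3, n = 22, against 403.4 ± 91.3, n = 12; limma adjusted p = 0.559), and -0.13 with array group as a block. The largest pair was the triple knockout against wild type, -0.40 (95% interval -0.93 to 0.14, n = 6 and 2), where 0.0789% of genes were called. Of 17 genes of the myeloid programme that PU.1 drives, such as Csf1r and Irf8, 0 were called by limma in the 3 additive terms. Their medians were -0.06, -0.06 and 0.07 for Rb1, p107 and p130. An unadjusted limma p under 0.05 was found for 0, 3 and 2 of them, against 1430, 2162 and 1282 of all 12672 genes.

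**Figure D4:**
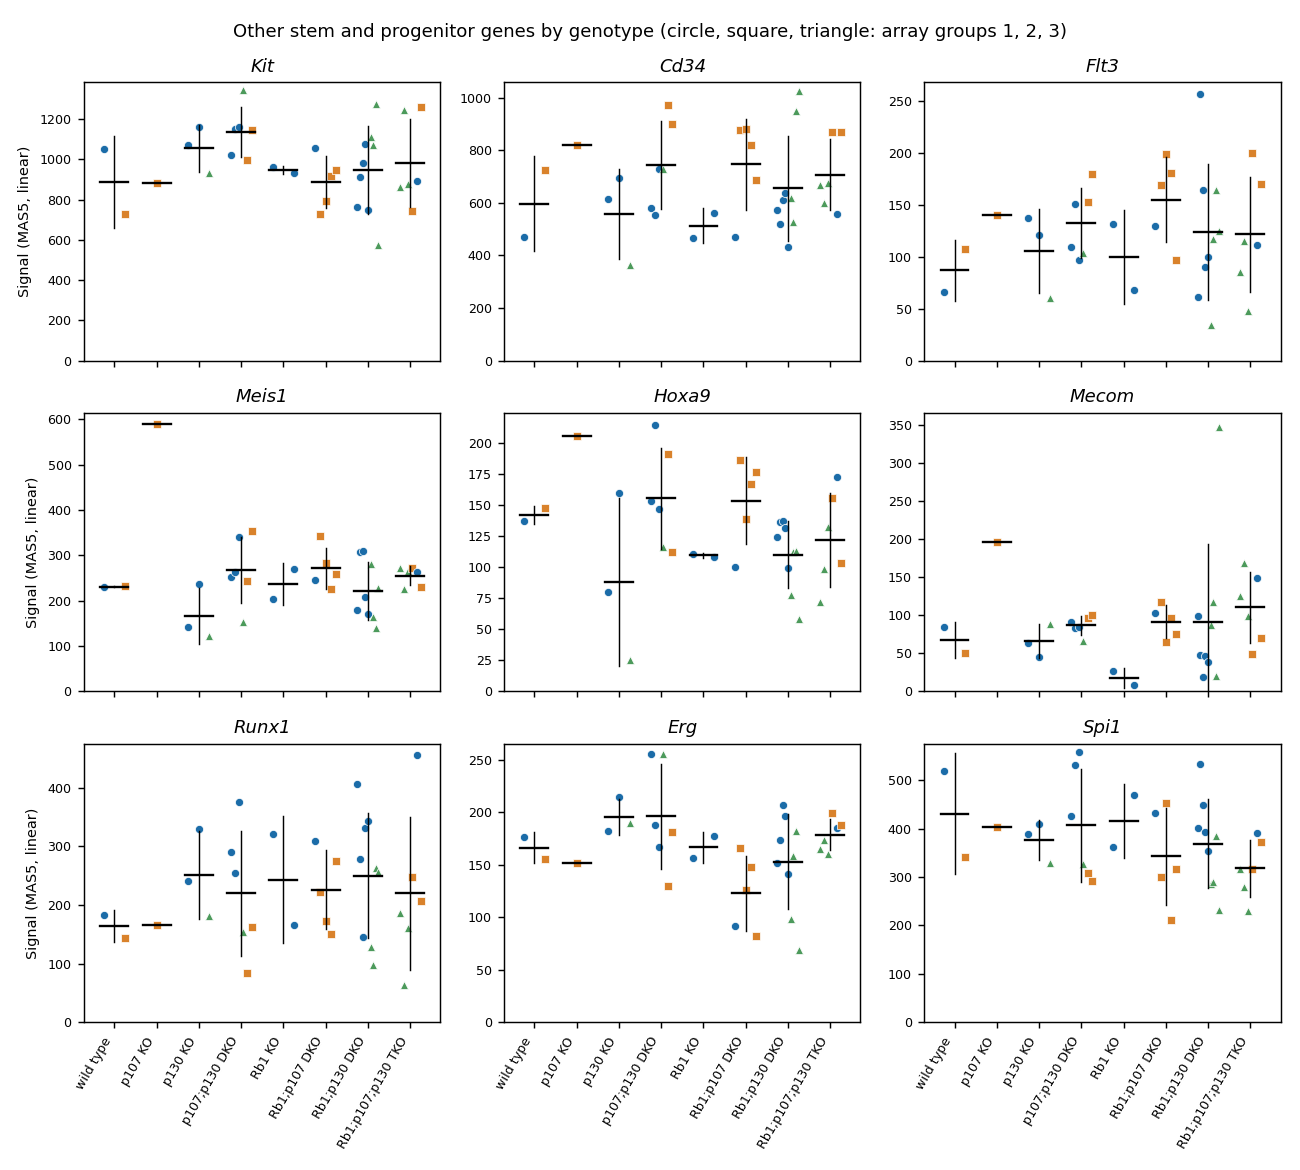
Signal (linear scale, vertical axes from 0, SD bars cut there) of the other 9 genes on each array by genotype, with the mean, the SD and the array group by symbol. Cd34 squares (second array group) average 841.5 against 564.1 for circles, Meis1 has its highest value on the p107 KO array (589.6), and Mecom has 1 array at 347.9.

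Genes around these members were read from lists, described by counts and medians. The lists too were chosen with earlier results of these data known. Of 22 other stem cell transcription factors, Gfi1b was called higher with Rb1 loss, as were 1.75% of all genes, and none lower. The list's median was -0.04 against -0.016 over all genes. GFI1B is a transcriptional repressor needed to make red cells and platelets. Gfi1b signal was 5557 ± 1106 (SD, n = 22) without Rb1 and 4222 ± 713 (n = 12) with it, a change of 0.40 ± 0.09 (limma adjusted p = 0.00697), with 21 of 22 arrays above the latter mean. Tal1, a close relative of Lyl1, gave 0.22 ± 0.08 (limma adjusted p = 0.158), with 19 of 22 arrays above. For loss of p107 the list had 0 calls by limma, with 1.14% called over all genes, and a median of 0.12. An unadjusted limma p under 0.05 was found for 7 of the 22, against 2162 of all 12672 genes. Cbfb, the partner subunit of RUNX1, came nearest (0.25 ± 0.07, limma adjusted p = 0.0555), with 17 of 18 arrays above the mean of those with p107.

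Of 10 tested genes on the list of HOX and TALE partners, 1 was called higher and 1 lower with Rb1 loss. Over all genes, 2.26% were called in either direction. Because the list was chosen with earlier results of these data known, its count against that share is a description and not a test. Pbx3, a TALE partner of MEIS1 and HOXA9, was 2592 ± 236 without Rb1 and 1990 ± 201 with it, a change of 0.38 ± 0.05 (limma adjusted p = 1.21e-05), with 22 of 22 arrays above that mean. Mllt3, on the list but not itself a HOX or TALE protein, is a stem cell maintenance factor and part of the super elongation complex. It fell by 0.63 on the log2 scale (2090 ± 447 against 3254 ± 734, limma adjusted p = 1.49e-06). Mllt3 was also called lower for p107 loss (-0.32, limma adjusted p = 0.0306), and this call was lost with array group as a block (-0.20, adjusted p = 0.256) and with the mean of its probe sets (-0.16, adjusted p = 0.135). It was also lost on leaving out 1 of 7 arrays in turn: array 1 of wild type, array 3 of p130 KO, arrays 5 and 6 of the double knockout of p107 and p130, either array of Rb1 KO, or array 4 of the triple knockout (adjusted p = 0.0537 to 0.0657). Hoxa7 and Hoxa10 did not reach 100 on any array.

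Genes of KIT and FLT3 signalling (16 tested, among them Grb2 and Stat5b), stem and progenitor surface genes (16, such as Cd27, Il7r and Cd44) and the fetal stem cell programme (6, such as Hmga2) had 0 calls by limma in each additive term. An unadjusted limma p under 0.05 was found for 1, 1 and 0 of them for Rb1 loss, for 3, 4 and 1 for p107 loss and for 2, 2 and 1 for p130 loss. Over all 12672 genes it was found for 1430, 2162 and 1282, and 2.26%, 1.14% and 0.0158% were called. The medians of the lists were -0.01, 0.03 and -0.03 for Rb1 loss and -0.02, 0.12 and 0.07 for p107 loss. Il7r came nearest, at 0.42 ± 0.12 for p107 loss (limma adjusted p = 0.0801; 122.2 ± 28.5, n = 18, against 87.3 ± 29.4, n = 16).

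The tested genes most like each member over the 34 arrays were taken by Pearson r, as a description of samples that share array group and genotype. For Lyl1 they were Asf1b (r = 0.77), Ube2s (0.76) and Zfp821 (0.75), and within array groups the values were 0.77, 0.75 and 0.75. For Cd34 they were Fam3c, Cd164 and Shisa5, whose r of 0.77, 0.77 and 0.76 became 0.62, 0.50 and 0.54 within array groups. For Meis1 they were Nfib and Acvr2a (both 0.71) and Nfat5 (0.69), and within array groups the values were 0.69, 0.68 and 0.57. For Hoxa9 they were Cyrib, Polr1d and Ptpn2 (0.76, 0.75 and 0.73, and 0.58, 0.58 and 0.55 within array groups). For Spi1 they were Spire2, Pkd2l2 and Gfi1 (0.76, 0.75 and 0.74, and 0.62, 0.47 and 0.56 within). For Kit the first was Zc3h13 (0.61, and 0.63 within), for Flt3 H2aj (0.72 and 0.62), for Mecom Sbk1 (0.78 and 0.77), for Runx1 Zc3h3 (0.76 and 0.61) and for Erg Slc7a8 (0.75 and 0.76). Thus the likeness of Lyl1 was about as large within array groups, as was that of Kit, Mecom and Erg to the first gene of each. That of Cd34, Hoxa9, Spi1, Flt3 and Runx1 was smaller there.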

How the data were processed

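Whole fetal liver RNA was measured on 34 arrays. Per the submitters' processing notes, MAS5 and GCOS 1.4 were used by the authors, whose deposited values are linear intensity, 1 per probe set. No detection calls were used here. The deposited trimmed means ran from 495.4 to 497.7, so arrays were already scaled. The number of arrays limits the precision. Other differences in labelling or scanning are not given in the sources used here.

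Each array was brought to a 2% trimmed mean of 500, and log2(signal + 32) was taken. Of 45037 probe sets, 34741 had 1 symbol, 932 several and 9364 none (GEO's platform annotation, updated through the GRCm38.p6 RefSeq table). A gene was its brightest probe set, kept where 2 or more arrays read at least 100. limma 3.58.1 in R 4.3.3 (eBayes with a trend, two-sided) fitted 1 additive term for each loss, and 1 mean per genotype for pairs. The p107 KO array entered both fits. Array groups came from clustering the arrays on how far apart (log2) the 2 brightest probe sets of each of 2954 genes lay, members and listed genes left out. The steps were tested on simulated data for Rb1 loss over 12672 genes, where 70% of 100 genes changed by 0.5 and 97% of 100 changed by 1 were recovered, with 8 false calls.

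Named genes were the 10 members and their probe sets, the targeted genes, from each list up to 4 genes with the largest absolute t in a term, and the 3 tested genes most like a member. Members and lists were chosen with earlier results of these data known. Alternatives were pseudocounts of 1 and 100, other filters, quantile normalization, the mean of probe sets, other eBayes settings, array weights, blocks, fewer arrays, and each array left out.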

Additional observations from a re-analysis of the deposited data

Results flagged for a closer look

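Erg had p107 effects of opposite sign on 2 backgrounds, and neither was called. With Rb1 and p130 absent, p107 loss gave 0.23 on the log2 scale, and with Rb1 absent and p130 present it gave -0.39. Every array of each group lacking p107 lay on that side of the mean of its comparison group. The difference between the 2 effects was not tested. It was 1 of 90 such pairs of effects examined over the 10 genes. In 40 groups examined for the 10 genes, no array was flagged within its genotype by its gap to the nearest array over the range. Chance marks about 1 in 20. The groups did not cover all 8 genotypes for every gene. The Mecom value of 347.9 on array 9 of the double knockout of Rb1 and p130, where the median was 48.4, was not flagged.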

How the results depend on the processing

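The Lyl1 call for Rb1 loss was made under each of 12 alternatives (0.22 to 0.26) and each of 34 arrays left out (0.24 to 0.27), with adjusted p from 0.00349 to 0.0348. The calls of Gfi1b, Pbx3 and Mllt3 for Rb1 loss were also made in all of them. For p107 loss the main count was 0 members, and 0 to 1 with each array left out. It was 2 (Cd34, limma adjusted p = 0.0365, and Mecom, 0.0446) with array weights, where 652 of all genes were called against 145 in the main fit. It was 2 (Cd34, 0.0285, and Mecom, 0.0335) without arrays 8 and 9 of the double knockout of Rb1 and p130, where 480 of all genes were called. Over single probe sets the count was 0 to 1 with each array left out, and 2 without those arrays. The cause was not tested. Array 9 of that genotype was the array whose removal gave 1, Mecom (0.0263), where 335 of all genes were called. Beside these and the replicate block, no alternative run changed the count of members called in the 15 comparisons.

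The labels do not say whether replicate numbers pair the samples, and the main fits do not pair them. Of 67 same-number pairs, 27 had a correlation over 0.1 (median 0.07, highest 0.5), and the median was -0.01 for 380 other pairs. These values cannot settle the question, since the share over 0.1 was not taken for the other pairs. With the replicate block, 1 member was called for p107 loss, Mecom (0.72, limma adjusted p = 0.0195), as was 1 probe set. Over all genes, 310 were called with that block, against 145 in the main fit.

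Over all genes, calls for Rb1 loss were 287, and 505 with array weights or 558 with the array group block. For p107 loss they were 145, and 652 with array weights, 310 with the replicate block, 84 with the array group block, 480 without arrays 8 and 9, and 69 to 335 with an array left out. For p130 loss they were 2, and 9 with the replicate block. For the triple against the double knockout of p107 and p130 they were 48, and 73, 143, 80 and 110 with quantile normalization, array weights, and replicate and array group blocks. For the double knockout of Rb1 and p107 against that of Rb1 and p130 they were 34, and 2118 with array weights, 773 with the replicate block, 4 with the array group block and 6 to 809 with an array left out. Genes under a signal of 100, such as Mecom and Flt3 on many arrays, are limited by background.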
